A study of Mus musculus with 6 samples.

Results

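The colony-stimulating factors and the cytokines measured beside them here were 10 genes: Csf1, Csf2, Csf3, Il34, Kitl, Cxcl12, Il6, Lif, Tnf and Il11. They were chosen by gene symbol, as every gene probe whose RefSeq accession maps to 1 of these symbols. The rule used no measured value, but the set was chosen with earlier results of these data known. They had 13 probes of 55681 gene probes on the array, 3 for Csf1, 2 for Cxcl12 and 1 for each other gene. RNA came from sorted live CD45- cells, the fraction without the leukocyte surface protein CD45, of PyMT mammary tumors in which a mammary promoter, MMTV, drives the middle T oncogene of polyomavirus. Cells of RANK+/+ or RANK-/- late carcinomas were grown as orthotopic transplants in syngeneic C57BL/6 mice. RANK, encoded by Tnfrsf11a, is the receptor activator of NF-kB. Both groups were of strain C57BL/6, were untreated as far as the labels say, and differed by label in the RANK genotype of the transplanted cells alone. Only the transplanted cells carried the deletion, so host stroma that passed the sort as CD45- was RANK+/+ in both groups, and no age is given in the labels.

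Each array received 1 RNA of each genotype, labeled with the dyes Cy5 and Cy3. The 6 arrays made 3 pairs of RNAs with 2 technical arrays each, A and B, and the design text names the 3 RNAs per genotype as biological replicates. Cy5 marked the RANK-/- RNA of pair 1, whereas those of pairs 2 and 3 carried Cy3, so what sets pair 1 apart and what the dyes contribute cannot be told apart. Between 51.9% and 58.8% of gene probes stood well above background, depending on the array and channel. All values below are on the log2 scale: a level is the normalized intensity of 1 channel averaged over arrays A and B, and a ratio is the level of the channel labeled RANK-/- minus that of the channel labeled RANK+/+. Errors given as ± are SDs over the pairs (n = 3). Tnfrsf11a served to check the labels, and its 1 probe gave positive ratios throughout, at 2.03, 1.15 and 1.76. This direction goes against the label, and whether the probe lies in the deleted part is not given in the sources used here. Groups are therefore named by the label of the channel.

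Colony-stimulating factors are secreted proteins that keep myeloid cells and their precursors alive and make them divide and mature. Macrophage colony-stimulating factor (Csf1) and interleukin 34 (Il34) share the receptor Csf1r and sustain macrophages, granulocyte colony-stimulating factor (Csf3) drives neutrophil output, and granulocyte-macrophage colony-stimulating factor (Csf2) acts on both lines. In mammary tumors such factors are made by carcinoma cells as well as by fibroblasts, and interleukin 6, LIF and interleukin 11 signal through the shared chain gp130 to STAT3. NF-kB, the factor that RANK activates, is a known regulator of several of these genes, among them Il6, Tnf and Csf2. The study also assayed secreted cytokines of tumor cultures, which raises the question whether the transcripts of these factors differed between the genotypes in the sorted cells.

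The members whose ratios varied most between pairs were Csf1, Cxcl12, Il6 and Tnf, with at least 1 probe each above the 95th percentile of the SD over all tested probes, and their promoter windows are shown because they are the ones the results turn on. Each line gives the 250 bases before the RefSeq transcription start in assembly GRCm38.p6, 5′ to 3′ on the strand of the gene. Capitals mark matches to the kappa-B consensus, the kind of site NF-kB binds, or to an AP-1 pattern (TGANTCA), searched on both strands.
Csf1 (chr3:107760470-107760719, minus strand): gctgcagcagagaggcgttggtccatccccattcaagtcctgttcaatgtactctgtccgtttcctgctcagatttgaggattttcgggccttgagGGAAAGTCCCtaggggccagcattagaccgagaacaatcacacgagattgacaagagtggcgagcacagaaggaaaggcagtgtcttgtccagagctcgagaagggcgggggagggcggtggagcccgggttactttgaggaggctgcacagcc
Cxcl12 (chr6:117168285-117168534, plus strand): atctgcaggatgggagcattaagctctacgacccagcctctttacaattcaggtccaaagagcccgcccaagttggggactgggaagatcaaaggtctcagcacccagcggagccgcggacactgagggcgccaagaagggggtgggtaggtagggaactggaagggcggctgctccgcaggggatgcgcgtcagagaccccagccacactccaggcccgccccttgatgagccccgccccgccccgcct
Il6 (chr5:30012864-30013113, plus strand): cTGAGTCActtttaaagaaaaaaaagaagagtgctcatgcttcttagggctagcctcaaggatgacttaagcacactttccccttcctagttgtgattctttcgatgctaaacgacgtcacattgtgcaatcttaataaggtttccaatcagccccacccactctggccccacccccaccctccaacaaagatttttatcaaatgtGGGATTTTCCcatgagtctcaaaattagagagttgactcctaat
Tnf (chr17:35202008-35202257, minus strand): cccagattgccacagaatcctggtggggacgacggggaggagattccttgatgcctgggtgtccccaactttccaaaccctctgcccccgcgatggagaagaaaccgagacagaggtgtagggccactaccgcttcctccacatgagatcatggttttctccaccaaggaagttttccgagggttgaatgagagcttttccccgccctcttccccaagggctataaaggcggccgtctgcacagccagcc

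The kappa-B consensus began 44 bases before the start of Il6 and, on the opposite strand, 154 bases before that of Csf1, and the AP-1 pattern began 249 bases before the start of Il6. RefSeq windows were at hand for 8 of the 10 members, all but Il34 and Csf3. Of these 8 genes, 4 (Csf1, Kitl, Il6 and Lif) held the kappa-B consensus, against 7.25% of all 32851 windows of the same length. This consensus was taken in place of a narrower pattern that fewer members and fewer of all windows held, so both shares depend on that choice. The AP-1 pattern was held by 3 (Il6, Lif and Il11), against 6.75%. Members were counted by gene, with a match in any window of the gene, and the background by window, so the shares are not strictly alike. Where a gene held both, as Il6 and Lif did, the matches did not overlap. A match describes the letters of the window and no more.

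No member passed the test across all probes. Of 30228 probes kept by a filter on dim spots and measured in all 3 pairs, limma called 0 (0%) at an adjusted p under 0.05, and 891 had an unadjusted p under 0.05. All 13 cytokine probes were kept by the filter, and each had a limma adjusted p of 1.00. With 3 pairs, an exact two-sided sign-flip test cannot give a p below 0.25. The number of RNA pairs therefore limits the precision of every mean given here.

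Arrays A and B of a pair gave closer values than different pairs did, as over the array as a whole. The gap between arrays A and B was 0.24 at most over the 13 probes and 3 pairs, with a median of 0.06. The range over the 3 pairs ran from 0.51 to 3.52 for these probes. Over all tested probes the median gap was 0.07 and the median SD over the pairs was 0.31. The gap holds array noise alone, whereas the range holds the difference between separate RNAs as well. Because pair 1 was labeled with the dyes the other way round, the range can also hold an effect of the dyes, which the gap cannot show.

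**Figure D1:**
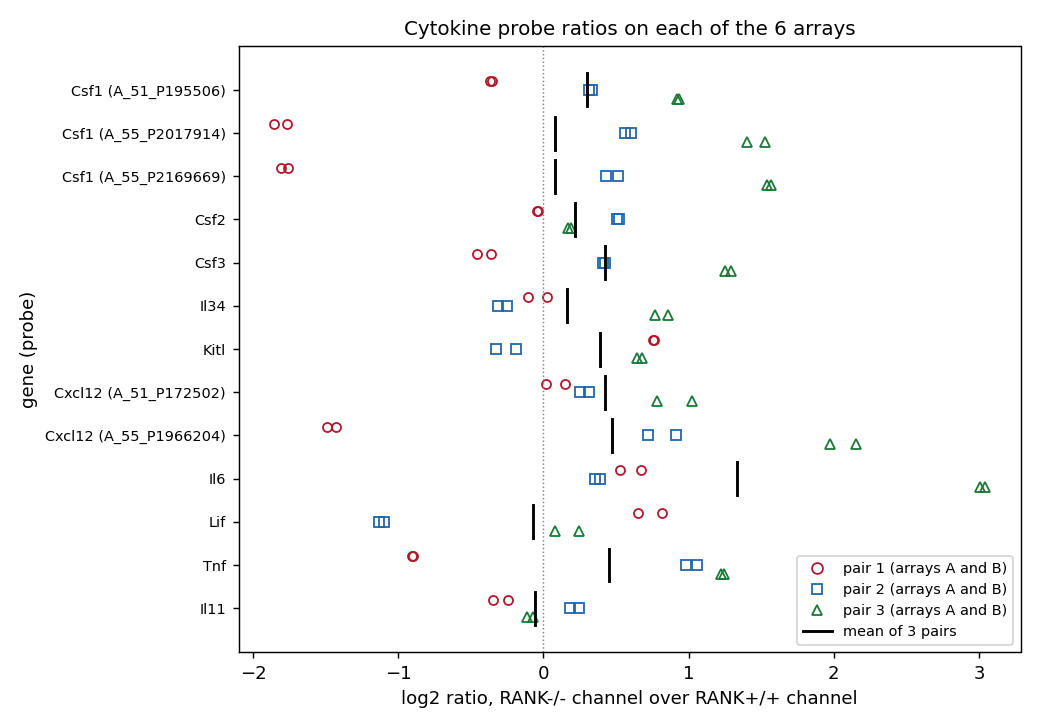
Log2 ratio of the channel labeled RANK-/- over the channel labeled RANK+/+ for each of the 13 probes, with arrays A and B of each pair as separate points (circles, pair 1; squares, pair 2; triangles, pair 3) and the mean of the 3 pairs as a black bar. Arrays of a pair lie close together, pairs lie apart, and Il6 is the gene with the highest mean, 1.33.

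Csf1, the main growth factor of macrophages, had the steadiest level in the channel labeled RANK-/- and a very unsteady one in the other. On the probe for NM_007778, spotted 10 times on each array, the RANK-/- level was 11.02, 11.11 and 11.08 in pairs 1, 2 and 3. The RANK+/+ level of the same probe was 11.38, 10.79 and 10.15. The RANK-/- RNAs thus lay almost on 1 value, and the RANK+/+ RNAs lay above it in pair 1 and below it in pairs 2 and 3. The ratios were -0.36, 0.32 and 0.93, with a mean of 0.30 ± 0.65 (SE 0.28).

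Both other Csf1 probes, designed on the transcript NM_001113530, showed the same order with wider gaps. On the first (A_55_P2017914), the RANK-/- level was 9.04, 9.08 and 9.23, and the RANK+/+ level was 10.85, 8.50 and 7.77. On the second (A_55_P2169669), the RANK-/- level was 9.35, 9.38 and 9.56, and the RANK+/+ level was 11.13, 8.90 and 8.01. In both, the 3 RANK+/+ values enclosed the RANK-/- values, so the groups overlapped fully. The ratios were -1.81, 0.58 and 1.46 on the first probe and -1.78, 0.47 and 1.55 on the second, and both means were 0.08, with an SD of 1.69 and 1.70. A mean near 0 here came from pairs of opposite sign and not from pairs near 0.

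The Csf1 probes disagreed on the size of the ratio. The first NM_001113530 probe differed from the NM_007778 probe by -1.45, 0.26 and 0.53 in pairs 1, 2 and 3, and the second by -1.42, 0.15 and 0.62. Those for NM_001113530 differed from each other by 0.11 at most. In pair 1 the difference was -1.41 on array A and -1.49 on array B for the first probe, so the disagreement repeated between arrays. Which part of the transcript each probe covers is not given in the sources used here.

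Il34, the second ligand of Csf1r, had a small mean ratio over pairs of mixed sign. Levels labeled RANK-/- were 9.001, 8.84 and 9.35, and its RANK+/+ level was 9.04, 9.12 and 8.53. The groups overlapped, and the RANK+/+ RNA of pair 3 was the lowest of the 6. The ratios were -0.04, -0.28 and 0.81, with a mean of 0.16 ± 0.58 (SE 0.26).

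Csf2 was near the limit of detection. Its RANK-/- signal was well above background on 6 of 6 arrays, but its RANK+/+ signal on 4 of 6, with both arrays of pair 3 missing it. The levels were 6.44, 6.90 and 6.33 for RANK-/- and, for RANK+/+, 6.49, 6.38 and 6.15. The lowest level of any probe well above background was 5.90 to 6.05 on the 6 arrays, so Csf2 stood only a little over this floor in every RNA. The ratios were -0.04, 0.51 and 0.18, with a mean of 0.22 ± 0.28 (SE 0.17). With Agilent's processed signals in place of normexp and loess the mean was 0.78.

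Csf3, the growth factor of neutrophils, varied in both channels. In the RANK-/- RNAs its level was 7.56, 9.69 and 9.11, and in the RANK+/+ RNAs 7.97, 9.27 and 7.84. Pair 2 was the brightest in both channels, and the groups overlapped. The ratios were -0.41, 0.42 and 1.27, with a mean of 0.43 ± 0.84 (SE 0.35). Csf3 was the member with the largest SD of level over the RANK-/- RNAs, 1.10, against 0.79 over the RANK+/+ RNAs.

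Kitl, or stem cell factor, is the ligand of the receptor Kit on mast cells and progenitors. It reached 9.13, 8.54 and 8.79 in the RANK-/- RNAs, and in the RANK+/+ RNAs 8.37, 8.79 and 8.13. Here pair 2 was the one that differed in sign, with its RANK+/+ RNA the higher. The ratios were 0.76, -0.26 and 0.66, with a mean of 0.39 ± 0.56 (SE 0.25).

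Cxcl12, the chemokine also known as SDF-1, is made largely by fibroblasts and attracts cells that carry Cxcr4. On the probe for NM_021704, the brighter of its probes, the RANK-/- level was 9.91, 10.54 and 10.67. The RANK+/+ level of that probe was 11.37, 9.72 and 8.61, so its highest and lowest RNAs were both labeled RANK+/+. The ratios were -1.46, 0.82 and 2.07, with a mean of 0.47 ± 1.79 (SE 0.71).

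The probe for NM_001012477 gave smaller ratios of 1 sign. Its RANK-/- level was 8.85, 9.24 and 9.28, and its RANK+/+ level was 8.77, 8.96 and 8.37. The RANK-/- RNA was the higher in each pair, although the groups overlapped. The ratios were 0.08, 0.28 and 0.90, with a mean of 0.42 ± 0.43 (SE 0.21). The NM_021704 probe differed from it by -1.54, 0.53 and 1.16 in pairs 1, 2 and 3, so the sign of Cxcl12 in pair 1 depended on the probe.

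Il6 was the gene of the set with the largest mean ratio and the only one whose levels did not overlap between the channels. Interleukin 6 is an inflammatory cytokine that activates STAT3 and is made by tumor cells, fibroblasts and macrophages. Its RANK-/- level was 11.18, 11.18 and 11.43, and its RANK+/+ level was 10.58, 10.81 and 8.41. Every RANK-/- RNA lay above every RANK+/+ RNA, and the RANK+/+ RNA of pair 3 lay far below the other 5. The ratios were 0.60, 0.37 and 3.02, with a mean of 1.33 ± 1.47 (SE 0.59), or 2.52-fold higher. Of all tested probes, 3.65% had every RANK-/- level above every RANK+/+ level and 3.71% the reverse, so 1 of 13 is near the background. The size of the mean rested on pair 3, without which it was 0.49. The probe was spotted in 2 copies on each array, and in pair 3 the ratio was 3.04 on array A and 3.01 on array B.

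Lif, a cytokine of the interleukin 6 family, stood out in 1 RNA. The RANK-/- RNAs had levels of 9.66, 9.36 and 9.24, and the RANK+/+ RNAs of 8.92, 10.47 and 9.07. The RANK+/+ RNA of pair 2 was the highest of the 6, and the others lay between 8.92 and 9.66. The ratios were 0.74, -1.12 and 0.16, with a mean of -0.07 ± 0.95 (SE 0.39).

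Il11, which signals through gp130 as well, was dim and differed least. Its RANK-/- level was 6.88, 7.04 and 6.84, and its RANK+/+ level was 7.18, 6.83 and 6.93. The groups overlapped. The ratios were -0.29, 0.21 and -0.09, with a mean of -0.06 ± 0.25 (SE 0.16).

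Tnf, the founding cytokine of the family to which the RANK ligand belongs, switched sign between pairs with large values on both sides. Its RANK-/- level was 9.20, 10.37 and 10.43, and its RANK+/+ level was 10.10, 9.35 and 9.19. Unlike Csf1, Tnf varied more over the RANK-/- RNAs, and its level in pair 1 there was about as low as in the RANK+/+ RNAs of pairs 2 and 3. The ratios were -0.90, 1.02 and 1.23, with a mean of 0.45 ± 1.17 (SE 0.48). Its probe was spotted 10 times, of which 7 to 9 spots were used per array after spots marked as outliers were left out, and the SD between these spots was 0.07 to 0.09.

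**Figure D2:**
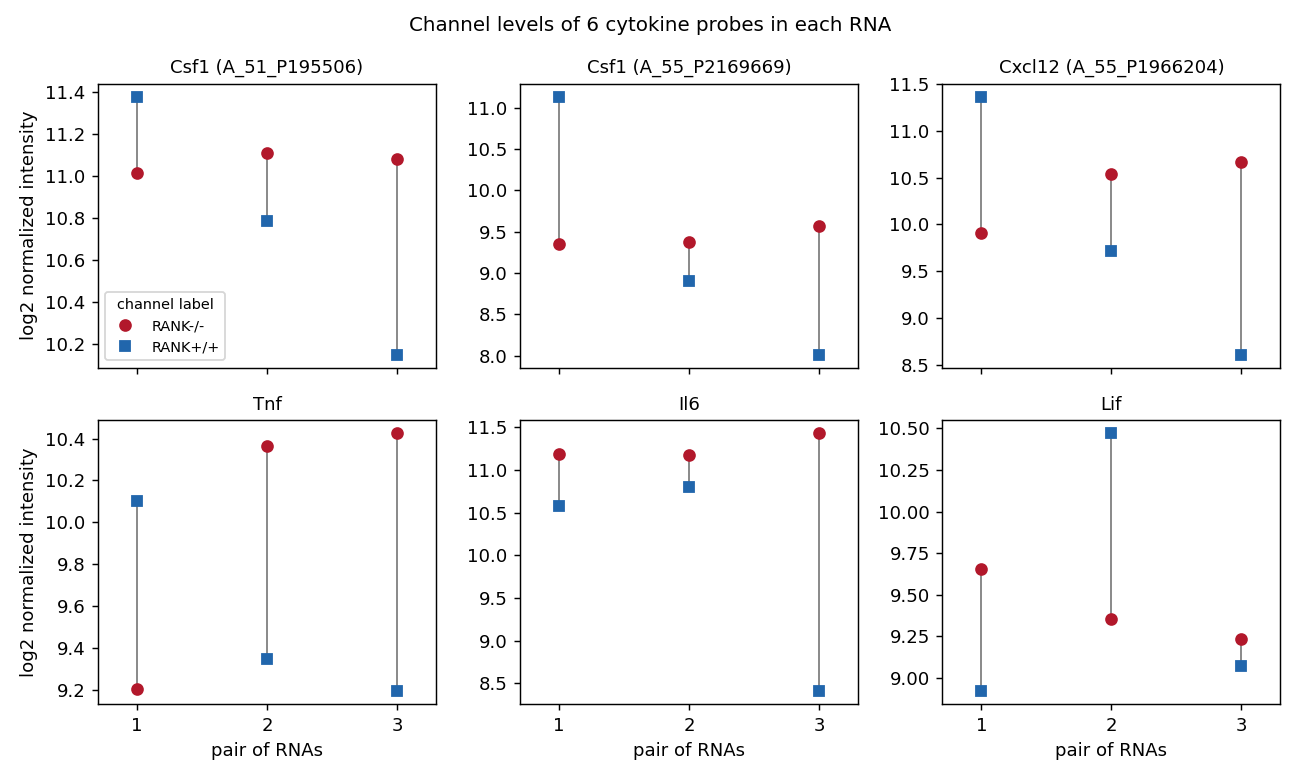
Log2 normalized intensity (y axis, with a range of its own in each panel) of 6 probes in the channels labeled RANK-/- (circles) and RANK+/+ (squares) for each pair of RNAs, joined by a grey line within the pair. The RANK-/- values of both Csf1 probes and of Il6 lie close to each other, whereas the RANK+/+ values spread, for Il6 from 8.41 to 10.81.

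Set side by side, the probes shared a pattern of signs. Of the 13, 7 were lower in the channel labeled RANK-/- in pair 1 and higher in pairs 2 and 3, namely all 3 Csf1 probes, Csf2, Csf3, the NM_021704 probe of Cxcl12, and Tnf. Csf2 is the least certain of these, since its pair 1 ratio of -0.04 was smaller than the SD between its spots on those arrays (0.10 and 0.09) and its RANK+/+ signal in pair 3 was not well above background. This order was found in 13.7% of all tested probes, and it was counted after the data had been seen. It is also the order in which pair 1 was labeled with the dyes the other way round, and the share of dye in it was not tested. The NM_001012477 probe of Cxcl12 and Il6 were higher in all 3 pairs, 2 of 13 against 9.99% of all probes, and 0 were lower in all 3, against 9.67%.

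Pairs differed in how many members were far from 0. In pair 1, 0 of 13 probes were at least 2-fold higher in the channel labeled RANK-/-, against 3.27% of all probes, and 3 were at least 2-fold lower, against 2.61%. Those were the NM_001113530 probes of Csf1 and the NM_021704 probe of Cxcl12. In pair 2, 1 probe (Tnf) was at least 2-fold higher, against 2.19%, and 1 (Lif) at least 2-fold lower, against 2.12%. In pair 3, 6 probes were at least 2-fold higher, against 4.36%, and 0 at least 2-fold lower, against 2.67%. The 6 were both NM_001113530 probes of Csf1, Csf3, the NM_021704 probe of Cxcl12, Il6 and Tnf. With median centring in place of loess, Csf3 (0.80), Tnf (0.67) and the A_55_P2017914 probe of Csf1 (0.99) fell below 2-fold in pair 3. The A_55_P2169669 probe of Csf1 (1.05), the NM_021704 probe of Cxcl12 (1.51) and Il6 (2.46) did not. The median ratio over the 13 probes was -0.29, 0.37 and 0.93 in pairs 1, 2 and 3, while over all tested probes it was 0.01, -0.01 and 0.00. Each pair holds 1 RNA of each genotype, so these counts describe RNAs and not genotypes. Probes of 1 gene are not independent, and the 13 probes stand for 10 genes.

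The spread within a genotype was uneven for several members. The SD of level was larger over the RANK+/+ than over the RANK-/- RNAs for 10 of 13 probes, against 51.4% of all tested probes. It was at least 3 times larger for 6 of 13, against 10.9%, namely for all 3 Csf1 probes, the NM_021704 probe of Cxcl12, Il6 and Lif. For the Csf1 probe of NM_007778 the SD was 0.05 over the RANK-/- RNAs and 0.61 over the RANK+/+ RNAs. The first NM_001113530 probe had an SD of 0.10 against 1.61, and Il6 had 0.14 against 1.33. Over all tested probes the median SD was 0.21 in either channel. Csf3, Tnf and Csf2 were the 3 exceptions, with the larger SD over the RANK-/- RNAs. An SD over 3 RNAs is itself imprecise, and these SDs were not tested against each other. In either genotype the RNA of pair 1 carried the other dye than those of pairs 2 and 3. The count of 6 was added after seeing the data, was 4 with median centring, and holds 3 probes of 1 gene.

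**Figure D3:**
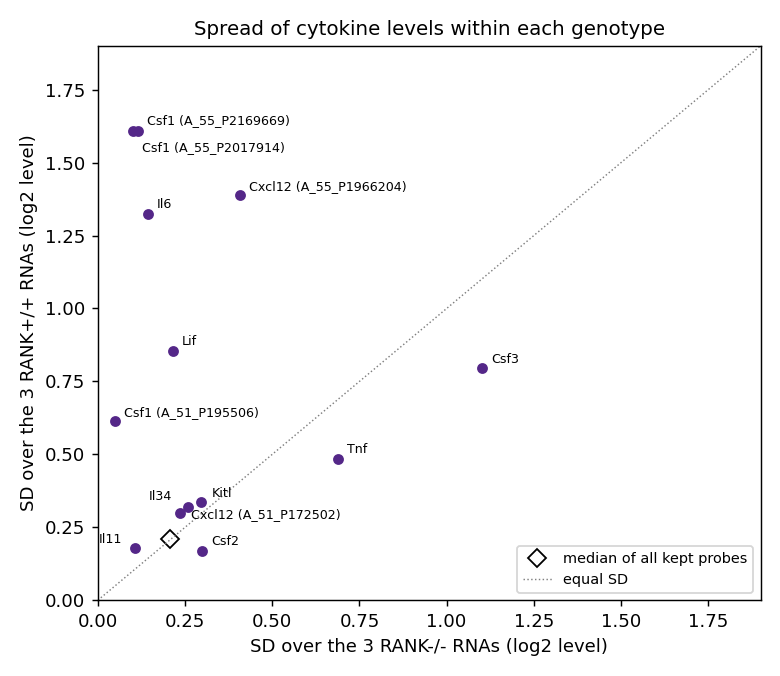
SD of the log2 level over the 3 RANK-/- RNAs (x axis) and over the 3 RANK+/+ RNAs (y axis) for each of the 13 probes, with the median of all tested probes as an open diamond and equal SDs as a dotted line. Of the probes, 10 lie above the line, with the Csf1 probes farthest to the upper left, and Csf3, Tnf and Csf2 lie below it.

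Markers of other cell types that a CD45- gate can hold were read beside these values. All 11 fibroblast markers were detected, and their summed level, on the linear intensity scale, ranged from 148643 to 242220 over the RANK-/- RNAs and from 56065 to 151498 over the RANK+/+ RNAs. The log2 ratio of the sums was 0.19, 0.73 and 2.11 in pairs 1, 2 and 3, and the median ratio of the 11 genes was 0.16, 0.68 and 1.82. Of the 11, 4 were higher in all 3 pairs and 0 lower, against 2240 and 2171 of 22503 genes by their brightest probe. Of these 4, Col1a2 (1.28 ± 0.96), Col1a1 (0.97 ± 0.86) and Pdgfra (0.54 ± 0.62) had the largest means. Some markers of mixed sign had means of like size, with Dcn at 1.24 ± 1.83, Lum at 1.05 ± 1.28, Col3a1 at 0.96 ± 1.04 and Fap at 0.89 ± 0.91. The others of mixed sign had smaller means, with Thy1 at 0.49 ± 0.74, Pdgfrb at 0.44 ± 1.34 and Postn at 0.10 ± 0.80. By sum and by median the fibroblast list was thus highest in pair 3. Not every marker followed, since Pdgfrb was highest in pair 1 and Fbln1 in pair 2. In pair 3 every probe of Csf1 and Cxcl12, and those of Csf3, Il34, Il6 and Tnf, also had their highest ratios. In pair 1, 7 of the 11 were above 0 and 4 below it, namely Dcn (-0.71), Lum (-0.23), Col3a1 (-0.08) and Fap (-0.00141). Dcn, which encodes the matrix protein decorin, had ratios of -0.71, 1.502 and 2.91, the sign order that Csf1 and the brighter Cxcl12 probe also had. The part of fibroblast content in these ratios was not tested. In sorted bulk RNA, fewer cells of a type and less RNA per cell cannot be told apart.

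Other marker lists were read the same way. Of 8 endothelial markers, 1 (Cldn5, 0.55 ± 0.36) was higher in all 3 pairs, and the list had medians of 0.11, -0.18 and 0.53. The 6 pericyte and smooth muscle markers had medians of 0.72, -0.58 and 0.40. The 7 luminal epithelial markers, which mark the tumor cells themselves, had medians of 0.27, -0.55 and 0.52, and all were detected in both channels of all 6 arrays. The log2 ratio of their sums was 0.25, -0.87 and 1.28, so by sum as by median the luminal list stood highest in pair 3. Krt8, Krt18, Krt19 (-1.22, -3.95 and 0.03) and Cldn7 were highest in that pair. Epcam (1.05, -0.67 and 0.52), Cldn3 (0.63, -0.39 and 0.48) and Cdh1 (0.27, -0.47 and -0.15) were highest in pair 1. The part of epithelial content in the cytokine ratios was not tested. Of 7 basal markers, 1 (Oxtr, 0.89 ± 0.89) was higher in all 3 pairs and 0 lower. The basal list had medians of 0.07, -0.02 and -0.01, whereas the log2 ratio of its sums was -0.77, -0.29 and -0.05. Epithelial markers were thus present in every RNA.

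General leukocyte markers were dim but not absent, whereas the macrophage list (12258 to 22345 over the 6 RNAs) and the neutrophil list had higher summed levels. Which cells these sums came from was not tested. Ptprc, which encodes CD45, gave a signal well above background on 5 of 6 arrays for RANK-/- and on 4 of 6 for RANK+/+. The 5 tested general leukocyte markers of 6 had medians of -0.92, 0.16 and 0.14, and their summed level ranged from 753 to 1598 over the RANK-/- RNAs and from 489 to 2406 over the RANK+/+ RNAs. The 9 tested macrophage markers of 10 had medians of -0.26, 0.07 and 0.13, whereas the log2 ratio of their sums was 0.43, -0.11 and 0.71, of the other sign in pairs 1 and 2. Of the neutrophil markers, 6 of 9 were tested, with medians of -0.68, 0.02 and -0.08 and summed levels of 52365 to 78790 against 49225 to 87054. Among them S100a9 was the only one lower in all 3 pairs (-4.12, -0.04 and -0.25), with RANK-/- signal above background on 4 of 6 arrays. S100a8, above background on 6 of 6 arrays in both channels, was at -3.99, 0.07 and -0.11. Csf3r (0.42) and Ltf (0.02) were above 0 in pair 1. Mmp8 was above background on 0 arrays in either channel. General leukocyte markers and Tnf were both lower in the channel labeled RANK-/- in pair 1, and the part of leukocyte RNA in the value of Tnf was not tested. Only 3 of 7 T lymphocyte, 3 of 6 mast cell and 2 of 5 adipocyte markers were bright enough to be tested, and the mast cell genes Cma1 and Ms4a2 and the adipocyte genes Adipoq, Plin1 and Lep were above background on 0 arrays. Of these lists, Cd3e (0.08 ± 0.11) and Fabp4 (0.27 ± 0.29) were higher in all 3 pairs.

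Receptor chains for the 10 ligands were measured in the same cells. Of 15 receptor genes 14 were tested, 0 passed, 2 were higher in all 3 pairs and 0 lower, against 2240 and 2171 of 22503 genes, and the median of their means was 0.18. Il6ra, the ligand-binding chain for interleukin 6, was one of these, with ratios of 1.28, 0.52 and 1.34 (mean 1.04 ± 0.46). Tnfrsf1b, the second TNF receptor, was the other, with ratios of 0.04, 0.79 and 0.01. The shared chain Il6st (gp130) was at -0.36, 0.33 and 0.59, the LIF receptor Lifr at -0.27, 0.45 and 1.93, and Il11ra1 at -0.16, 0.41 and 0.82. These 3 followed the sign order of Csf1 and Tnf, and so did Csf1r, Csf2rb2 and Ackr3, whose ratios are given below. Of all tested probes, 13.7% had this order.

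The receptors for the colony-stimulating factors were of mixed sign. Csf1r, the receptor of Csf1 and Il34, had ratios of -0.65, 0.07 and 0.57. The chains for Csf2 were at 0.63, -0.15 and -0.87 for Csf2ra, at -1.29, -0.24 and 1.04 for Csf2rb, and at -0.09, 0.11 and 0.40 for Csf2rb2. Csf3r was at 0.42, -0.03 and -0.05, and Kit, the receptor of Kitl, at 1.09, -0.85 and 0.27. Csf1r is also a marker of macrophages, Csf3r of neutrophils and Kit of mast cells, so each was counted in both lists. None of them kept 1 sign over the pairs.

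The Cxcl12 receptors ran in opposite directions. Cxcr4, which signals migration, had ratios of 1.65, -0.22 and -1.73, with a mean of -0.10 ± 1.69. Ackr3, which takes up and degrades the chemokine, had ratios of -0.02, 0.69 and 1.17, with a mean of 0.61 ± 0.60. In pair 1, where the brighter Cxcl12 probe was lowest, Cxcr4 was highest, and in pair 3 both stood the other way round. Tnfrsf1a, the first TNF receptor, had ratios of 0.23, -0.04 and 0.80. Relations between a ligand and its receptor were not tested.

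**Figure D4:**
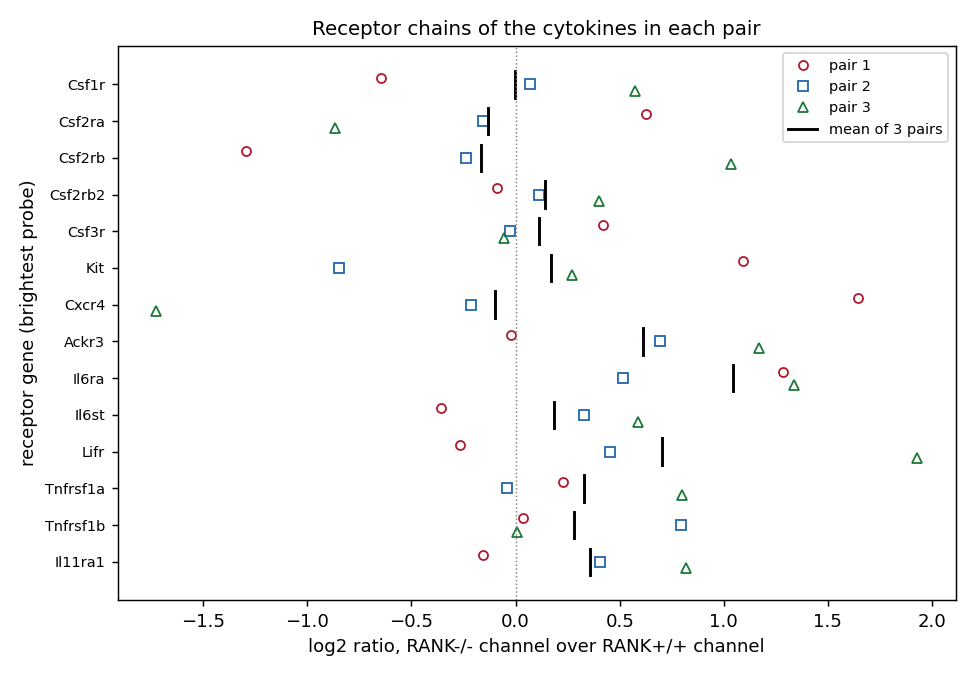
Log2 ratio of the channel labeled RANK-/- over the channel labeled RANK+/+ for the brightest probe of each of the 14 tested receptor genes, by pair (circles, pair 1; squares, pair 2; triangles, pair 3), with the mean as a black bar. Il6ra lies above 0 in all pairs, and Cxcr4 has the widest range.

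The other genes of the pathway were read from lists by function. Of 16 intracellular mediators all were tested, 0 passed, 3 were higher in all 3 pairs and 0 lower. Those were Stat3, the factor activated by interleukin 6 (0.96, 0.35 and 1.23, mean 0.84 ± 0.45), Stat5a (0.33 ± 0.35) and the feedback inhibitor Socs1 (0.24 ± 0.17). Over all genes 2240 of 22503 were higher in all 3 pairs. Other genes on the path from interleukin 6 were of mixed sign, with the kinases Jak1 at -0.10, 0.09 and 0.24 and Jak2 at 0.29, -0.45 and 0.92, and the inhibitor Socs3 at 0.02, -0.14 and 1.26. Median centring, which replaced the loess step, left the sign of the Il6 mean as it was, at 1.13.

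Of 20 other ligands of the same families 14 were bright enough to be tested, 0 passed, 2 were higher and 2 lower in all 3 pairs. Flt3l, a growth factor of dendritic cells, had a mean of 0.60 ± 0.18, and Il3, above background on 6 arrays for RANK-/- and on 3 for RANK+/+, one of 0.16 ± 0.08. Ctf1, a cytokine of the interleukin 6 family, was among the lower ones (-0.13 ± 0.08). Of 11 genes for the release of membrane-bound cytokines or the decay of their mRNA, 0 passed, and Zfp36l1, which binds AU-rich mRNA, was the 1 that was higher in all 3 pairs (0.38 ± 0.17). The median of the means was 0.02 for the ligands, 0.20 for the mediators and 0.11 for the release and decay genes, against 0.34 for the 10 members by their brightest probe and 0.00 over 22503 genes.

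Genes whose levels followed each member most closely over the 6 RNAs were found among 14672 others by Pearson r. For Csf1 (NM_007778 probe) these were Castor2 (0.996), C1ra (0.994) and B4galt5 (0.993). For Cxcl12 (NM_021704 probe) they were Frmd4b (0.983), Cfb (0.983) and Lasp1 (0.979). Il6 was followed by Kcnk5 (0.991), Ehd4 (0.990) and Mocos (0.989), and Tnf by Arhgef16 (0.978), Sbf1 (0.976) and Thoc6 (0.975). For Csf2 they were Tox2 (0.994), Psme1 (0.990) and Gm12250 (0.987), and for Csf3 Acbd7 (0.988), Stk35 (0.987) and Alkbh7 (0.985).

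The remaining members had their own nearest genes. Il34 was followed by Blnk (0.994), Sptan1 (0.986) and Jmjd1c (0.982), and Kitl by Sec14l2 (0.992), Rnf170 (0.991) and Tmem202 (0.989). Lif was followed by Aff4 (0.996), Vps53 (0.991) and Abca5 (0.991), and Il11 by Slc4a11 (0.998), Dusp9 (0.992) and Rrp12 (0.988). Over 6 points such values are common: 16 to 53 genes exceeded 0.95 for each member. The RNAs of a pair share an array, so these correlations are descriptions with no test. Between members, the closest probes of different genes were Csf1 (NM_007778) and Cxcl12 (NM_021704), with r = 0.964.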

How the data were processed

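Sorted CD45- tumor cells were profiled on 6 SurePrint G3 arrays, with groups and dyes as the labels give them. Spots were extracted by the authors in Feature Extraction 10.7.3.1. In the deposited scanner files there are median intensity and background intensity per channel, processed intensity values and a log10 ratio of red over green. The deposited processed values are log2 ratios that the authors normalized, whose unstated direction ran as RANK-/- over RANK+/+ against the scanner ratios. Of unmapped columns there were 0.

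Median signals were corrected with normexp (offset 50, limma 3.58.1, R 4.3.3) and normalized by loess, in which control spots had no weight, and Aquantile. The median stood in for the mean spot signal. Outlier gene spots (212 to 260 per array) took part in the normalization and were left out when spots were averaged. No spot was saturated. Spots of a probe, then arrays A and B, were averaged, and where Feature Extraction marked 1 array as an outlier the other stood for the pair. A probe was kept when 1 genotype had it well above background on arrays A and B in 2 or more pairs (30231 probes, 54.3%). Ratios were tested with limma (lmFit and eBayes, two-sided, Benjamini-Hochberg, threshold 0.05), a fit tested on simulated data. The rank product test of the study, which draws over genes, was not run. For gene lists the brightest kept probe stood for a gene. Within a pair the labels give 1 dye arrangement, although dye swaps are described in the methods. There was 1 slide and 1 scan date, so neither could be tested as a batch.

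Symbols and promoters came from RefSeq tables of GRCm38.p6, and 28026 of 55681 gene probes matched by accession. The array grid names mm9, so no probe coordinates are given. The rule named all 10 members by every probe, Tnfrsf11a, every receptor gene, the genes of other lists past the threshold or, with the same sign in all 3 pairs, up to 3 of largest mean per direction, and the 3 genes of highest r per member. The kappa-B consensus replaced a narrower pattern, which fewer members and fewer of all windows held. Some further marker genes were named after their values were seen. A gene that this rule names is not reported here. The members and lists were chosen with earlier results of these data known. Alternatives covered background, normalization, filter, probe choice, technical arrays, dye, variance, pairing and each pair left out.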

Additional observations from a re-analysis of the deposited data

How the results depend on the processing

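The count of probes past the limma threshold stayed at 0 in every alternative but 2, and also without each pair in turn (0 to 0). Taking the 6 arrays as separate replicates gave 381, a random block for the pair gave 17, and neither count held a member. Without the replicate block, with the channels taken as unpaired samples, 0 probes passed and Il6 had a mean of 1.33. The pairing rests on the shared array.

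Over all alternatives, 237 of 253 means of cytokine probes kept their sign and 16 reversed it, and the lowest limma adjusted p of any was 0.219. With median centring in place of loess, the means of the NM_001113530 probes of Csf1 were -0.0735 and -0.0821 and that of Il34 was -0.0122. With a dye term they were -0.39 and -0.39 for Csf1, -0.00925 for Cxcl12 (NM_021704) and 0.13 for Lif, and that of Tnf was 0.11 in place of 0.45. When each pair was left out in turn, the means ran from -0.0190 to 0.63 for Csf1 (NM_007778), from -0.61 to 1.02 and from -0.66 to 1.01 for its other probes, from -0.16 to 0.39 for Il34, from -0.32 to 1.44 for Cxcl12 (NM_021704), from -0.48 to 0.45 for Lif and from -0.19 to 0.0600 for Il11. Those of Csf2 ran from 0.07 to 0.35, of Kitl from 0.20 to 0.71, of Cxcl12 (NM_001012477) from 0.18 to 0.59, of Il6 from 0.49 to 1.81, of Tnf from 0.06 to 1.13, of Csf3 from 0.00 to 0.84, and of Tnfrsf11a from 1.45 to 1.89. Tnfrsf11a, at 1.65, passed with 6 separate arrays (adjusted p 0.0124) and with the random block (0.0177).

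Of 39 pair values, 11 were at least 2-fold, against 7 with median centring, 15 with Agilent's processed signals, 12 with a normexp offset of 16, 12 in the series table and 11 in the other normalizations. Counts added after seeing the data were as follows. The 6 probes with an SD at least 3 times larger over the RANK+/+ RNAs were 4 with median centring and 5 to 7 without a pair. The 1 probe with levels that did not overlap became 2 with Agilent's processed signals, through Cxcl12 (NM_001012477), and 1 to 7 without a pair, by way of fewer values to overlap. The 7 probes lower in pair 1 and higher in pairs 2 and 3 remained 7 in number under each of 5 other normalizations. The cause of these changes was not tested otherwise. Csf2 and Il11 were limited by signal close to background.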
